A study of Homo sapiens with 2 samples.

Results

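The natriuretic peptide system was followed across the cells of blood-generating heart-forming organoids (BG-HFOs) through 7 genes, the 3 hormone genes *NPPA*, *NPPB* and *NPPC*, the protease gene *CORIN* and the 3 receptor genes *NPR1*, *NPR2* and *NPR3*. They were chosen by name, and all 7 were found among the 36601 genes of the count tables. Single cells of 2 BG-HFOs (32.7 and 33.10) were profiled on day 14, with 1 droplet-based 3′ library per organoid. Both organoids were grown from the human embryonic stem cell line hES3 NKX2.5-eGFP, which carries a fluorescent reporter at a heart gene, by embedding cell aggregates in Matrigel and steering the WNT pathway in both directions together with cytokines and growth factors that drive blood and endothelium. They are replicates of a single condition in a single cell line, so comparisons were made between cell classes within the organoids.

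*NPPA* encodes atrial natriuretic peptide and *NPPB* B-type natriuretic peptide, hormones that cardiomyocytes (CMs) release, and *NPPA* is a long-used marker of the developing chamber myocardium. *NPPC* encodes C-type natriuretic peptide, which acts locally. Corin is a membrane protease that cuts the atrial prohormone into its active form. *NPR1* and *NPR2* encode receptors that make cyclic GMP, the first for the atrial and B-type peptides and the second for the C-type peptide, whereas *NPR3* encodes a receptor that binds the peptides and clears them.

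On GRCh38, *NPPA* (ENSG00000175206) spans chromosome 1 from 11845709 to 11848345 and *NPPB* (ENSG00000120937) lies 9118 bp beyond it, from 11857464 to 11858945, both on the minus strand. *NPPA* overlaps the gene *CLCN6* (chromosome 1, 11806096 to 11848079), which runs on the plus strand. *NPPC* (ENSG00000163273) spans chromosome 2 from 231921809 to 231926396 on the minus strand and *CORIN* (ENSG00000145244) chromosome 4 from 47593999 to 47838106 on the minus strand. The receptor genes all run on the plus strand, *NPR1* (ENSG00000169418) on chromosome 1 from 153678688 to 153693992, *NPR2* (ENSG00000159899) on chromosome 9 from 35791003 to 35809732 and *NPR3* (ENSG00000113389) on chromosome 5 from 32689070 to 32791724.

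The 250 bases before the transcript start are shown for *NPPA* and *CORIN*, the members with the largest differences between CMs and the other classes below, and for *NPPC*, the hormone gene highest in mesenchyme (RefSeq, GRCh38.p14, minus strand, 5′ to 3′). Their positions are chr1:11847784-11848033 for *NPPA*, chr4:47838068-47838317 for *CORIN* and chr2:231926397-231926646 for *NPPC*, and the *NPPA* window lies inside the longer gene span given above. Capitals mark matches to 5 short motifs, each searched on both strands.
NPPA: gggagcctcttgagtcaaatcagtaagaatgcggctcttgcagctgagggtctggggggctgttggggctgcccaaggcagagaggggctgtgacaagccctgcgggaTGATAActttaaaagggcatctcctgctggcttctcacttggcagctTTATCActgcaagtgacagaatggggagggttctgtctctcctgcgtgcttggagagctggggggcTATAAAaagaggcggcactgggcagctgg
CORIN: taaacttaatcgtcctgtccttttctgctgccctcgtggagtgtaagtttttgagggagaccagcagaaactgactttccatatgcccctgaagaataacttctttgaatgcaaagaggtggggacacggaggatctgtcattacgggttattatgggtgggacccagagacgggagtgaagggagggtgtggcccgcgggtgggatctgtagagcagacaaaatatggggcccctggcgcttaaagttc
NPPC: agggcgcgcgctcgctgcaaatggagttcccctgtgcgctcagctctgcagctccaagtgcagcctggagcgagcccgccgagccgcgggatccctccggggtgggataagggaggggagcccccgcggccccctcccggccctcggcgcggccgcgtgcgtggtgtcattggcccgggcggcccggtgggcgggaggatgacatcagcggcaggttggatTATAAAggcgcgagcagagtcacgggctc
The motifs were TATAAA (found in 10.7% of 35116 promoters of this length), TGATAA (6.66%), AGATAA (9.17%), TNAAGTG (8.73%) and GGTGTGA (2.76%). The *NPPA* window held TATAAA from -29 to -24, counted back from the transcript start, and TGATAA at -142 and, on the other strand, at -95. The *NPPC* window held TATAAA at the same place, from -29 to -24, and the *CORIN* window held none of the 5. *NPPB* is named only, and of the windows not shown, those of *NPR1* and *NPR2* held none of the motifs and 1 of those of *NPR3*, which has several starts, held GGTGTGA on the other strand.

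Organoid 32.7 had 191152562 unique molecular identifiers (UMIs, each marking 1 captured transcript) in 16866 barcodes and organoid 33.10 had 233818881 in 19948, and 16792 and 19893 cells passed the filter. Cells were assigned to a class when enough marker genes of that class, and of no other, had at least 2 UMIs. This gave 2372 and 2166 CMs, 2713 and 2910 endothelial cells (ECs) and 1379 and 1495 mesenchymal (MES) cells, beside erythroid (513 and 1112), megakaryocyte (500 and 1409), myeloid (1101 and 744) and endoderm cells (101 and 17). Each of the 6 CM markers, the 8 MES markers and 7 of the 8 EC markers was highest in its own class, which is how the classes were chosen. No class gate was passed by 35.0% and 33.0% of the cells, and several gates by 13.3% and 17.5%. The libraries shared 100 barcodes. Expression is given in CPM, a gene's UMIs out of every 1000000 UMIs in the cells of a class, with values for organoid 32.7 first.

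*NPPA* was a CM transcript in both organoids. Its level in CMs was 480 and 470 CPM (475 ± 6.79, SD, n = 2 organoids). In ECs it was 2.46 and 2.42 CPM, in MES cells 1.71 and 1.98 CPM and in erythroid cells, which should lack it, 2.07 and 2.51 CPM. The CM values thus lay far above all other classes and differed little between organoids, and no other gated class exceeded 5.67 CPM. *NPPA* was 188-fold higher in CMs than in ECs (log2 fold change 7.55, SE 0.17, adjusted p = 9.33e-10) and 260-fold higher than in MES cells (8.02, SE 0.18, adjusted p = 1.26e-09), in quasi-likelihood tests by edgeR, adjusted over 21557 genes by the Benjamini-Hochberg method and used in this way for every comparison below. CMs held 68.6% and 64.8% of all *NPPA* UMIs, and cells that passed the CM gate alone or beside another gate held 95.4% and 96.2%.

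The few *NPPA* UMIs outside the CMs were set against those of other CM transcripts. *NPPA* UMIs amounted to 8.76% and 9.68% of those of *MYL7*, the atrial myosin light chain gene, in CMs, to 9.09% and 10.2% in ECs and to 8.46% and 12.8% in erythroid cells. In megakaryocyte cells it was higher, 11.8% and 14.1%, and also in myeloid cells, 13.0% and 16.1%, whereas in MES cells it was lower, 2.35% and 3.01%. Against *TNNT2* the value was 9.42% and 10.1% in CMs and 7.14% and 6.99% in ECs. *MYL7* and *TNNT2* are CM gate genes, and cells that passed the CM gate were left out of the other classes. The gate thus selected for their UMIs in CMs and limited them elsewhere, but did not act directly on *NPPA*. The values of CMs and of other classes are therefore not strictly comparable, and the size of this effect was not tested. *NPPA* was 0.47 higher on the log2 scale in ECs than in MES cells (SE 0.18, adjusted p = 0.0472), with both classes at the level of erythroid cells. The call was lost under 8 of the 11 alternatives, among them leaving either organoid out of the compared classes.

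*NPPA* was spread unevenly over the CMs. At least 1 UMI was found in 52.8% (exact 95% binomial interval 50.8 to 54.9) and 55.3% (53.2 to 57.4) of CMs, whose median depths were 5781 and 8558 UMIs, against 3.90% and 3.69% of erythroid cells with median depths of 17769 and 12800. After each cell was thinned to 5000 UMIs, with the shallower cells left out (1334 and 1601 CMs kept), the shares were 46.9% and 47.4% in CMs and 1.23% and 1.46% in erythroid cells. The median CM had 1 UMI and the highest 101 and 103. The top decile of CMs carried 66.9% and 61.5% of the *NPPA* UMIs, compared with 37.3% and 32.2% for *TNNT2*, the cardiac troponin T gene. *MYL7* lay between them, with 49.1% and 44.8%, as did *TTN*, the titin gene, with 50.6% and 43.2%. *TNNT2*, *MYL7* and *TTN* are CM gate genes, so cells with few of their UMIs tended to be left out. For *CORIN*, which is not a gate gene, the top decile held 65.3% and 55.6%. This share also depends on how many UMIs a gene has. Intervals and limits of this kind cover counting error only.

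**Figure D1:**
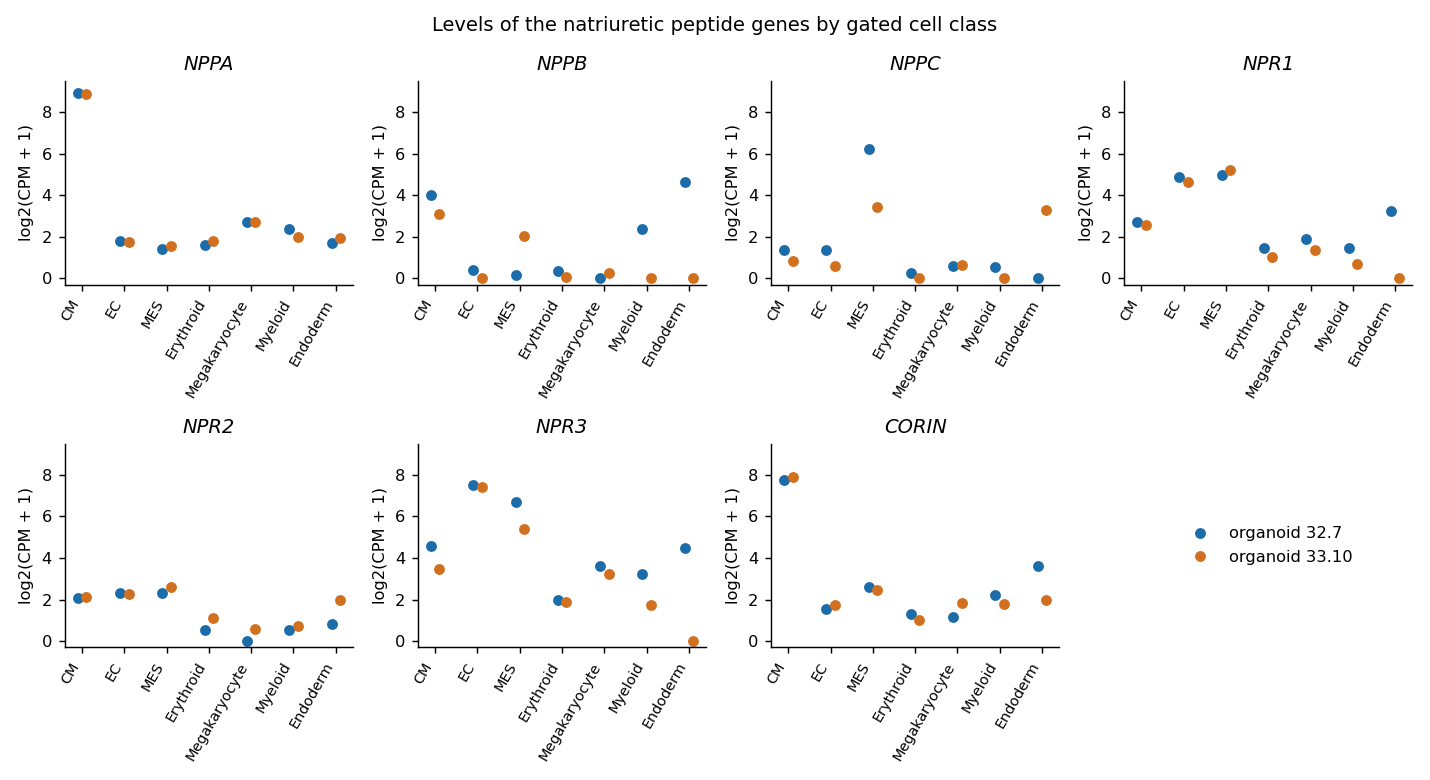
Level of each of the 7 genes (log2 of CPM + 1, vertical axis) in the 7 gated classes (horizontal axis), with 1 point per organoid. *NPPA* and *CORIN* stand out in CMs, *NPR3* and *NPR1* in EC and MES cells, and *NPPC* in MES cells, where the organoids are apart (75.0 and 9.90 CPM). The endoderm point of organoid 33.10 rests on 17 cells.

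*NPPB* was also highest in CMs among the 3 main classes, but at low counts. CMs had 15.3 and 7.67 CPM (301 and 173 UMIs), and ECs had 0.324 and 0.0288 CPM (12 UMIs and 1 UMI). MES cells had 0.131 CPM in organoid 32.7 (3 UMIs) and 3.18 CPM in organoid 33.10 (74 UMIs). In MES cells of 33.10, a single cell carried 68 of the 74 UMIs, and no UMI was left once the 5 highest cells were removed. *NPPB* was 5.88 higher on the log2 scale in CMs than in ECs (SE 1.35, adjusted p = 0.00334). Its difference from MES cells, 2.82 (SE 1.07), did not pass the test (adjusted p = 0.0628), but did with the organoid as a replicate block (2.62, adjusted p = 0.0449). The difference was 6.77 with organoid 33.10 left out of the compared classes and 1.32 with organoid 32.7 left out.

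Cells with many *NPPB* UMIs were few in every class. After thinning, 3.52% and 1.62% of CMs had a UMI, against 0.411% and 0 of 1029 erythroid cells. The latter count allows up to 0.292% of cells with a UMI, by an approximate 1-sided 95% limit and not the exact interval used above. The 5 highest CMs held 23.9% and 45.1% of the CM total. In organoid 32.7, 54 and 24 of the 78 myeloid UMIs came from 2 cells, and 21 of the 32 endoderm UMIs from 1 cell, so that the endoderm level of 24.2 CPM rests on few cells. The myeloid and endoderm cells of organoid 33.10 had no *NPPB* UMI.

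*NPPA* and *NPPB* were more often found in the same CMs. Among thinned CMs without an *NPPA* UMI, 1.27% and 1.07% had an *NPPB* UMI. With 1 to 4 *NPPA* UMIs the share was 4.90% and 1.43%, and with 5 or more it was 8.63% and 3.73%. In this order of bins, the shares rest on 9, 21 and 17 cells with *NPPB* in organoid 32.7 and on 9, 7 and 10 in organoid 33.10. *CORIN* UMIs followed the same order, from 32.8% and 31.2% of the cells without *NPPA* to 61.9% and 72.0% of those with 5 or more. General CM transcripts rose along the same bins, *TNNT2* from 3803 and 3621 CPM to 7660 and 6371 CPM and *MYL7* from 3159 and 3183 CPM to 10710 and 7953 CPM, and their part in the joint detection was not tested. These shares are descriptions over cells that come from the same organoid.

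*CORIN* had the same class pattern as *NPPA*. Its level in CMs was 219 and 236 CPM. In ECs it was 1.95 and 2.36 CPM, in MES cells 5.07 and 4.52 CPM and in erythroid cells 1.50 and 1.05 CPM. The CM values lay above all other classes in both organoids. *CORIN* was 102-fold higher in CMs than in ECs (log2 fold change 6.67, SE 0.22, adjusted p = 7.22e-09) and 47.9-fold higher than in MES cells (5.58, SE 0.21, adjusted p = 2.72e-08). CMs alone held 62.1% and 60.3% of its UMIs.

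MES cells had slightly more *CORIN* than ECs. The difference, 1.09 on the log2 scale (SE 0.21), passed the test (adjusted p = 0.00141) but not with organoid 32.7 left out of the compared classes (0.87). *CORIN* UMIs amounted to 5.34% and 5.75% of those of the titin gene *TTN* in CMs and to 8.72% and 5.07% in MES cells. *TTN* is a CM gate gene, selected for in CMs and limited in MES cells by the gates, so these values are not strictly comparable. When an assumed 10% of free RNA was subtracted from each class, the MES level fell to 1.18 CPM on average and the EC level to 0. The subtracted profile was that of all kept cells, with 37.3 CPM of *CORIN* on average. A level as low as that of ECs therefore falls to 0 by the subtraction alone. The true amount of free RNA was not measured.

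*NPPC* was a MES transcript, at levels that differed between the organoids. MES cells had 75.0 CPM in organoid 32.7 and 9.90 CPM in organoid 33.10 (1716 and 230 UMIs). CMs had 1.57 and 0.798 CPM, ECs 1.54 and 0.519 CPM and erythroid cells 0.188 and 0 CPM. MES cells had the highest level of the gated classes in each organoid, although the organoids were 7.58-fold apart. Endoderm cells of organoid 33.10 came close, at 8.64 CPM, from 3 UMIs in 1 of 17 cells. The share of all genes highest in MES cells of both organoids was not counted. *NPPC* was 5.18 higher on the log2 scale in MES cells than in CMs (SE 0.95, adjusted p = 0.00166) and 5.30 higher than in ECs (SE 0.92, adjusted p = 0.000728).

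Few MES cells carried *NPPC*. At least 1 UMI was found in 9.35% and 3.81% of MES cells, and in 5.58% and 2.72% after thinning. The highest cell had 210 UMIs in organoid 32.7 and 31 in organoid 33.10, and the 5 highest held 45.5% and 40.9% of the UMIs. Without those 5 cells the levels were 41.3 and 5.89 CPM, and among cells of 8000 to 20000 UMIs they were 38.0 and 7.10 CPM. MES cells with at least 3 UMIs of the fibroblast gene *LUM* and without an epicardial signature had 101 and 20.8 CPM, and MES cells with 3 or more of 6 epicardial genes had 24.3 and 1.96 CPM. Without the 5 highest cells of each group these were 39.7 and 9.47 CPM and 8.48 and 0.332 CPM. The epicardial-marker cells were compared with all other MES cells (88.7 and 12.7 CPM), and the difference of -2.15 (SE 0.95) did not pass the test (adjusted p = 0.391), but did with the organoid as a replicate block (-2.12, adjusted p = 0.015).

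**Figure D2:**
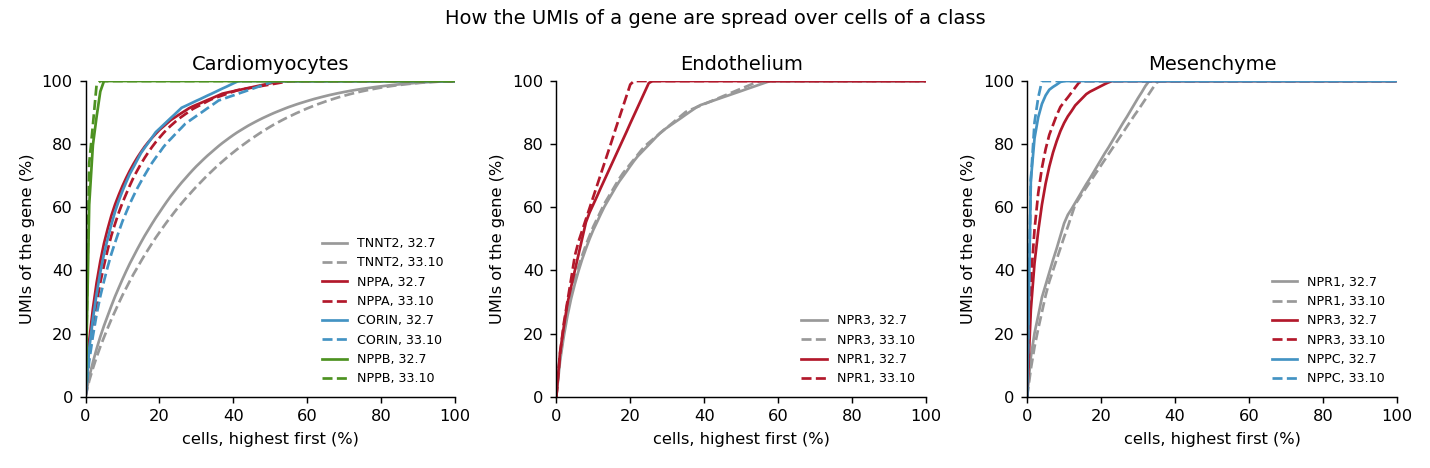
Share of a gene's UMIs (vertical axis, %) held by the richest cells of a class (horizontal axis, % of cells, highest first), for each organoid (solid 32.7, dashed 33.10). *NPPB* in CMs and *NPPC* in MES cells reach 100% within the first decile of the cells, whereas *TNNT2*, a gate gene, climbs slowly in CMs.

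*NPR1* was found in ECs and MES cells. Its level was 28.6 and 23.6 CPM in ECs and 31.0 and 36.8 CPM in MES cells. CMs had 5.64 and 5.01 CPM and erythroid cells 1.78 and 1.05 CPM. ECs and MES cells lay above the CMs in both organoids. *NPR1* was lower in CMs than in ECs by 2.35 on the log2 scale (SE 0.29, adjusted p = 5.32e-05) and than in MES cells by 2.65 (SE 0.29, adjusted p = 6.41e-05). ECs and MES cells did not differ by the test (-0.30, SE 0.26, adjusted p = 0.373). Without thinning, at least 1 UMI of *NPR1* was found in 25.2% and 20.3% of ECs and 32.8% and 35.3% of MES cells. In CMs the shares were 3.84% and 4.16%, against 2.73% and 1.44% of the deeper erythroid cells. These shares also depend on depth, which differed between the classes. In thinned cells of organoid 32.7, 298 ECs had a UMI and 2161 had none, against 172 and 1173 MES cells. In organoid 33.10 these were 263 and 2226 ECs and 246 and 1187 MES cells.

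*NPR2* was low in all 3 main classes. Its level was 3.20 and 3.41 CPM in CMs, 3.97 and 3.81 CPM in ECs and 3.98 and 4.99 CPM in MES cells. In erythroid, megakaryocyte and myeloid cells it did not exceed 1.17 CPM. None of the 3 comparisons passed the test, with log2 fold changes of -0.28 (SE 0.31) for CMs over ECs, -0.42 (SE 0.32) for CMs over MES cells and -0.13 (SE 0.31) for ECs over MES cells. The order of these classes is therefore not resolved for *NPR2*.

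*NPR3* was highest in ECs in both organoids. Its level was 181 and 171 CPM in ECs and 102 and 41.5 CPM in MES cells. CMs had 22.9 and 10.2 CPM and erythroid cells 3.00 and 2.63 CPM. The EC values were close to each other and the MES values were apart. Among cells of 8000 to 20000 UMIs the levels were 192 and 175 CPM in ECs but 49.98 and 27.45 CPM in MES cells, lower than over all depths. *NPR3* was lower in CMs than in ECs by 3.47 on the log2 scale (SE 0.54, adjusted p = 0.000274) and than in MES cells by 2.13 (SE 0.52, adjusted p = 0.00876). ECs exceeded MES cells by 1.34 (SE 0.49, adjusted p = 0.0412). This call was lost with organoid 33.10 left out of the compared classes (0.89), with DESeq2 (adjusted p = 0.107), with stricter gates (adjusted p = 0.068) and with free RNA removed (adjusted p = 0.0619).

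ECs and MES cells carried *NPR3* in different ways. Without thinning, at least 1 UMI was found in 57.8% and 54.9% of ECs but in 22.7% and 14.3% of MES cells. The top decile of the cells held 53.0% and 53.9% of the UMIs in ECs and 86.7% and 93.4% in MES cells. In thinned ECs, *NPR3* was found in 40.1% and 40.1% of cells without an *NPR1* UMI and in 42.6% and 39.5% of those with one, so that the receptors showed no common preference for the same ECs at this depth. In MES cells the shares were 15.5% and 8.34% without *NPR1* and 13.4% and 4.47% with it.

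Of the 6 members with enough UMIs in the comparison of CMs with ECs, 3 (*NPPA*, *NPPB* and *CORIN*) were higher in CMs, where 28.5% of all tested genes were called higher, and 2 (*NPR1* and *NPR3*) were lower, against 29.1% of all genes. In CMs over MES cells, 2 of 7 (*NPPA* and *CORIN*) were higher and 3 (*NPPC*, *NPR1* and *NPR3*) were lower, against 15.7% and 19.5% of all genes. In ECs over MES cells, 2 of 6 (*NPPA* and *NPR3*) were higher and 2 (*NPPC* and *CORIN*) were lower, against 23.2% and 26.2%.

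**Figure D3:**
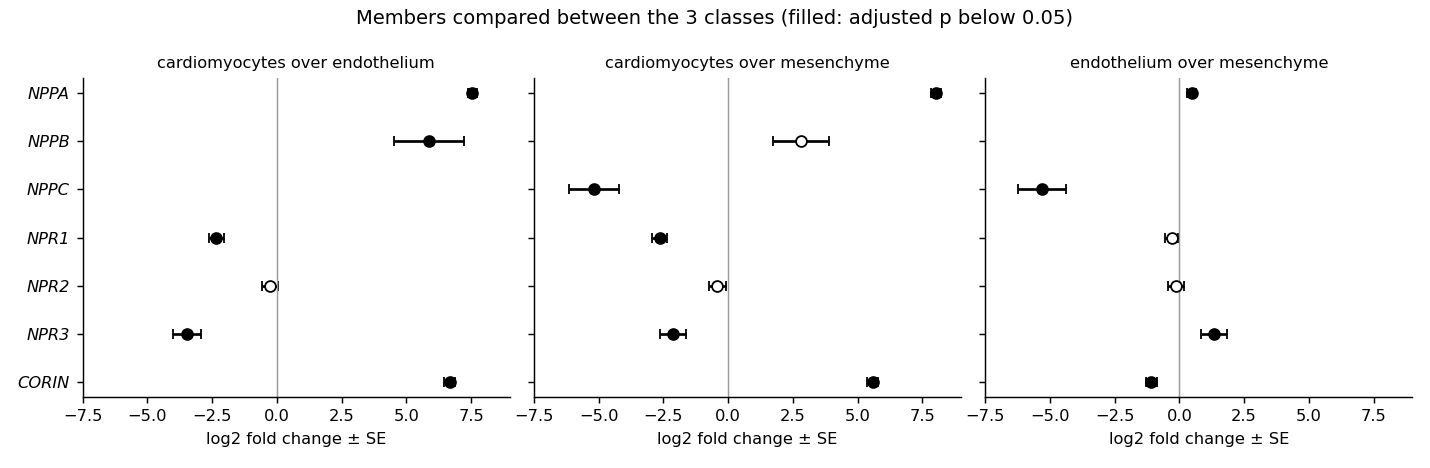
Log2 fold change with its SE (horizontal axis) of the members in the 3 comparisons between CMs, ECs and MES cells. Filled points had an adjusted p below 0.05. Members are left out where neither compared class had at least 20 UMIs in both organoids. The hormone gene *NPPA* and *CORIN* lie far to the CM side, and *NPR1* and *NPR3* to the EC and MES side.

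Within the endothelium, *NPR1* was lower in cells with an arterial signature. ECs with at least 2 of 6 arterial genes and no *NR2F2* (1770 and 1864 cells) had 18.2 and 15.2 CPM. ECs with at least 2 UMIs of the venous gene *NR2F2* and under 2 arterial genes (204 and 250 cells) had 79.7 and 53.6 CPM. *NPR1* was lower in the arterial-marker cells of both organoids, by 1.85 on the log2 scale (SE 0.28, adjusted p = 0.000366), a call kept under all 11 alternatives. In this comparison 12.2% of 21194 genes were called higher and 7.51% lower, with 61.9% of the calls on the higher side, compared with 48.1% under DESeq2's size factors, and the median of all genes was 0.11 against 0.00.

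*NPR3* tended the other way without passing the test. It was at 209 and 202 CPM in arterial-marker and 129 and 87.6 CPM in venous-marker ECs, a difference of 1.07 (SE 0.47, adjusted p = 0.136), which passed the test with the organoid as a replicate block (1.12, adjusted p = 0.0133) and without the filter on low counts (1.15, adjusted p = 0.00908). *NPPA*, *NPR2* and *CORIN* did not pass either, and *NPPB* and *NPPC* had too few UMIs. Among ECs of 8000 to 20000 UMIs the *NPR1* levels were 20.0 and 15.9 CPM in arterial-marker and 70.3 and 50.2 CPM in venous-marker cells. Venous-marker ECs also had more of the cardiac factor gene *GATA4* (392 and 313 CPM against 29.3 and 31.2 CPM), which was not used in this division.

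*NPR1* fell step by step with the number of arterial genes. With each EC thinned to 5000 UMIs to count these genes, cells with none had 65.3 and 41.1 CPM of *NPR1*, cells with 2 had 28.8 and 23.2 CPM and cells with 5 or 6 had 12.8 and 12.8 CPM. *NPR3* was at 134 and 128 CPM in cells with none, and its highest values were 209 CPM with 3 genes in organoid 32.7 and 216 CPM with 4 in organoid 33.10. It was lower again, 168 and 173 CPM, with 5 or 6. Median depth stayed between 12318 and 13515 UMIs in 32.7 and between 10764 and 11767 in 33.10 across these bins. The steps are descriptions over cells and carry no test.

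**Figure D4:**
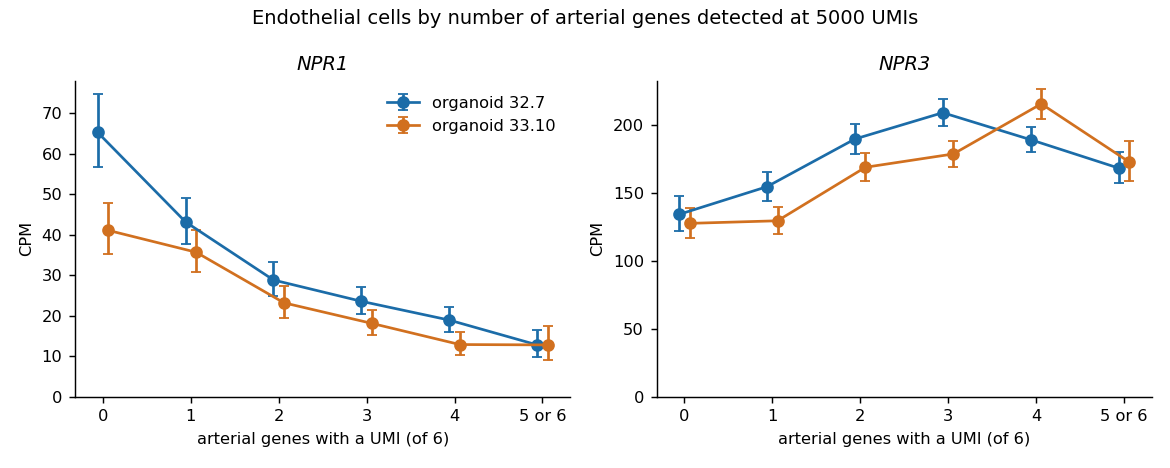
CPM of *NPR1* and *NPR3* (vertical axes) in ECs grouped by the number of arterial genes with a UMI (horizontal axis), for each organoid, with exact 95% Poisson intervals that cover counting error only. *NPR1* declines from 65.3 and 41.1 CPM to 12.8 CPM in both organoids, and *NPR3* is lowest in cells with 0 or 1 arterial gene.

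ECs with UMIs of both *NFATC1* and *GATA4*, genes of the endocardium (126 and 127 cells), were compared with other ECs, and none of the 5 members with enough UMIs passed the test. Endocardial-like cells as the paper describes them, with CM genes beside endothelial ones, can pass the CM gate too and were then not among these ECs. *NPR3*, which is known from endocardium, was at 139 and 157 CPM against 184 and 172 CPM in other ECs (-0.44, SE 0.47, adjusted p = 0.697). *NPR1* was at 52.6 and 33.0 CPM against 27.0 and 22.9 CPM (0.60, SE 0.29, adjusted p = 0.341), and *NPR2* was at 1.25 and 2.67 CPM against 4.16 and 3.88 CPM (-1.23, SE 0.52, adjusted p = 0.278). The order of endocardial-marker and other ECs is therefore not resolved for these receptor genes. The share of all genes with the same order in both organoids was not counted, so no conclusion is drawn from the order of the levels. In this comparison 0.713% of 21612 genes passed the test, and the endocardial-marker cells were deeper, with medians of 16033 and 15489 UMIs against 11854 and 9790. Among cells of 8000 to 20000 UMIs *NPR3* was at 75.5 and 134 CPM in 68 and 72 endocardial-marker cells. Other ECs of these depths had 198 and 177 CPM, a wider gap in both organoids than over all depths.

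Cells that passed both the CM and the EC gate (326 and 248 cells) had levels of 5 members between those of the CMs and ECs of the same organoid. *NPPA* was at 160 and 171 CPM, *CORIN* at 97.7 and 83.0 CPM, *NPR3* at 101 and 91.9 CPM, *NPR1* at 24.9 and 19.6 CPM and *NPPB* at 6.86 and 4.65 CPM. *NPR2*, at 3.15 and 2.32 CPM, lay below both classes, and *NPPC*, at 1.85 and 0 CPM, lay above both in 32.7 and below both in 33.10. Among the cells with top doublet scores by Scrublet, which simulates droplets that hold cells of different kinds, were 56.1% and 66.1% of them, compared with 11.6% and 15.7% of CMs and 6.71% and 8.80% of ECs. These cells were left out of both classes. The paper's endocardial-like cells had CM genes beside *CDH5* and *PECAM1*, and *NPPA* itself is among the CM genes that the paper lists for them. They may therefore be in this group, as may doublets. Which of these the cells were was not tested.

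Among CMs, *NPPA* and *CORIN* were higher in cells that expressed the ventricular myosin light chain gene *MYL2*. CMs with at least 2 *MYL2* UMIs were rare (59 and 32 cells) and had 845 and 1090 CPM of *NPPA*, against 443 and 425 CPM in CMs without a *MYL2* UMI. The difference was 1.10 on the log2 scale (SE 0.14, adjusted p = 0.00337). *CORIN* was at 374 and 500 CPM against 206 and 222 CPM, a difference of 0.97 (SE 0.18, adjusted p = 0.0226). Both genes were higher in the *MYL2*-positive CMs of both organoids. Both calls were lost when either organoid was left out of the compared classes, which leaves a single library in each. In this comparison 0.819% of 21601 genes passed, 23.7% of them higher, compared with 44.4% under DESeq2, and the median of all genes was -0.20 against -0.03.

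*NPPB* had 72.6 and 52.7 CPM in *MYL2*-positive and 12.7 and 6.52 CPM in *MYL2*-negative CMs, and its difference of 2.70 (SE 1.00) did not pass the test (adjusted p = 0.302). *MYL2*-positive CMs were deeper, with medians of 12537 and 15764 UMIs against 5626 and 8260. Among cells of 8000 to 20000 UMIs *NPPA* was at 779 and 982 CPM against 416 and 430 CPM and *NPPB* at 18.3 and 14.6 CPM against 13.2 and 7.21 CPM, from 24 and 14 *MYL2*-positive cells. The stromal collagen gene *COL3A1* was lower in *MYL2*-positive CMs (77.4 and 93.8 CPM against 426 and 292 CPM) and *TNNT2* higher (6727 and 6095 CPM against 4905 and 4555 CPM), and their part in the result was not tested.

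Cycling CMs, with UMIs of at least 3 of 5 proliferation genes (182 and 149 cells), had less *CORIN*. It was at 137 and 153 CPM in cycling and 227 and 245 CPM in other CMs, lower by 0.80 on the log2 scale (SE 0.17, adjusted p = 0.0133), where 6.01% of 21547 genes passed. The call was lost when either organoid was left out of the compared classes. *TNNT2* was lower in the same cells, at 2942 and 2916 CPM against 5329 and 4866 CPM, and the part of this in the result was not tested. *NPPA*, at 403 and 398 CPM against 488 and 478 CPM, did not pass (-0.37, SE 0.13, adjusted p = 0.117).

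CMs with UMIs of at least 2 of 4 pacemaker genes (*SHOX2*, *TBX3*, *HCN4* and *ISL1*) numbered 203 and 221. They had *NPPA* levels of 449 and 481 CPM against 487 and 468 CPM in other CMs (-0.08, SE 0.12, adjusted p = 0.906). *SHOX2* did not exceed 0.278 CPM in any of the *NPPA* bins of CMs above. Whether the pacemaker-marker CMs were pacemaker cells was not tested. No member tested passed in this comparison, where 0.0467% of 21410 genes did. *CORIN* was at 305 and 269 CPM against 199 and 229 CPM (0.38, SE 0.16, adjusted p = 0.627). Pacemaker-marker CMs were deeper, with medians of 16494 and 17213 UMIs against 5272 and 7800, and among cells of 8000 to 20000 UMIs *NPPA* was at 545 and 507 CPM against 431 and 451 CPM. In the comparison of epicardial-marker with other MES cells, 0.204% of 21590 genes passed and none of the 6 members tested did.

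**Figure D5:**
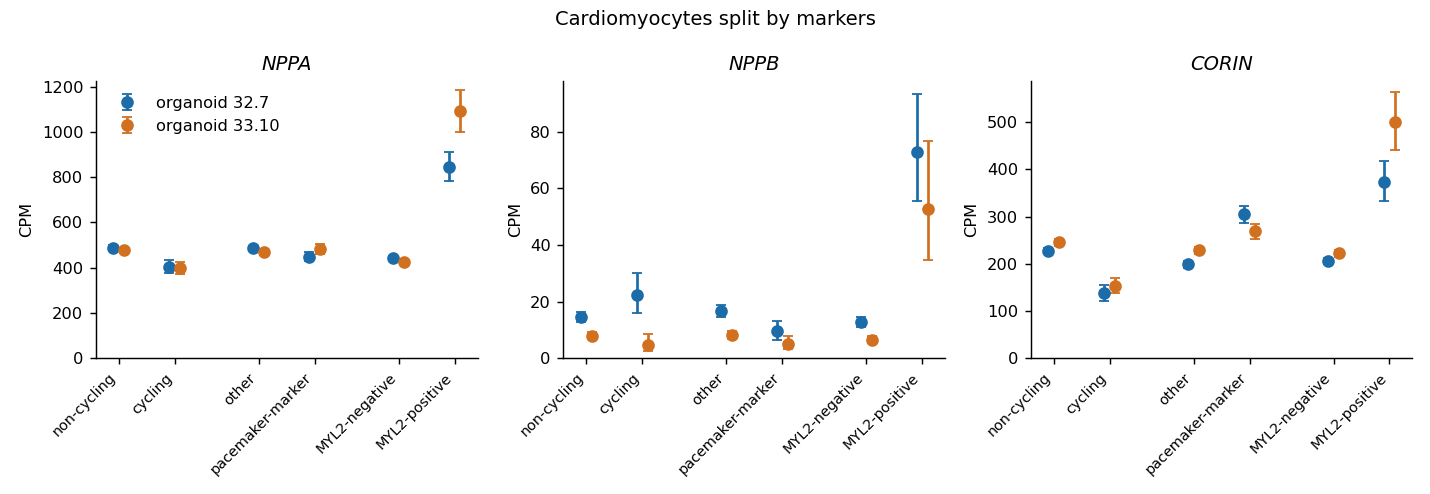
CPM of *NPPA*, *NPPB* and *CORIN* (vertical axes) in CMs divided by cycling genes, by pacemaker genes and by *MYL2* (horizontal axis), for each organoid, with exact 95% Poisson intervals that cover counting error only. *MYL2*-positive CMs have the highest *NPPA* (845 and 1090 CPM) and cycling CMs the lowest *CORIN* (137 and 153 CPM).

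Of 26 genes that process, transmit or degrade natriuretic peptide signals, or act beside them on cyclic nucleotides, 25 were tested. In CMs over ECs, 7 were higher and 15 lower, with a median of -0.86 against 0.00 for all genes. Among all genes tested, 28.5% were higher and 29.1% lower. The largest was *PLN*, the phospholamban gene and a target of cyclic nucleotide kinases (1194 and 1230 CPM against 12.4 and 15.7 CPM, log2 fold change 6.39, SE 0.16, adjusted p = 1.49e-09). Next came *CALCRL*, a receptor gene for adrenomedullin, which was lower in CMs (58.7 and 30.9 CPM against 759 and 780 CPM, -4.15, SE 0.26, adjusted p = 3.73e-07).

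In CMs over MES cells, 3 of the 25 were higher and 16 lower (median -0.72, against -0.05 for all genes, of which 15.7% were higher and 19.5% lower). The largest was *MME*, the neprilysin gene, whose product degrades the peptides (6.30 and 3.77 CPM in CMs and 53.4 and 46.4 CPM in MES cells, -3.30, SE 0.25, adjusted p = 5.29e-06). *PLN* had nearly the same size in the other direction (1194 and 1230 CPM in CMs and 118 and 132 CPM in MES cells, 3.29, SE 0.14, adjusted p = 5.75e-08). In ECs over MES cells, 12 were higher and 10 lower (median 0.34, against -0.03 for all genes, of which 23.2% were higher and 26.2% lower), and the largest was *GUCY1A1*, a subunit of the soluble guanylate cyclase that makes cyclic GMP in response to nitric oxide (12.3 and 9.80 CPM in ECs and 299 and 289 CPM in MES cells, -4.66, SE 0.23, adjusted p = 1.73e-07).

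In arterial-marker over venous-marker ECs, 9 were higher and 2 lower (median 0.30, against 0.11 for all genes, of which 12.2% were higher and 7.51% lower). The largest of the higher ones was *PDE1C*, a phosphodiesterase gene regulated by calmodulin (11.3 and 19.9 CPM against 1.76 and 2.59 CPM, 2.95, SE 0.38, adjusted p = 0.000106). The lower ones were *MME* (4.77 and 4.43 CPM against 45.8 and 38.1 CPM, -3.04, SE 0.26, adjusted p = 3.93e-06) and *PDE2A*, a phosphodiesterase gene whose enzyme is stimulated by cyclic GMP (4.03 and 2.95 CPM against 16.7 and 14.0 CPM, -1.99, SE 0.37, adjusted p = 0.00191). *MME* thus had the same order as *NPR1* in these cells. In the other 5 comparisons at most 1 of the 25 passed. *PLN* was higher in endocardial-marker ECs (1.19) and lower in cycling CMs (-1.23), and *PRKG1*, the cyclic GMP-dependent kinase gene, was lower in *MYL2*-positive CMs (106 and 123 CPM against 229 and 270 CPM, -1.17).

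Of 12 known regulators of *NPPA* and *NPPB*, 9 were higher and 3 lower in CMs than in ECs, 6 higher and 3 lower in CMs than in MES cells, 3 higher and 6 lower in ECs than in MES cells and 3 higher and 4 lower in arterial-marker than in venous-marker ECs, and at most 1 passed in each other comparison. The shares of all genes higher and lower in these 4 comparisons were 28.5% and 29.1%, 15.7% and 19.5%, 23.2% and 26.2%, and 12.2% and 7.51%. The medians of the list were 2.29, 0.74, -1.16 and -0.02, against 0.00, -0.05, -0.03 and 0.11 for all genes. *TBX5*, an activator of *NPPA*, was at 123 and 133 CPM in CMs, 2.76 and 3.89 CPM in ECs and 23.8 and 36.7 CPM in MES cells. *GATA4* was at 327 and 375 CPM in CMs and 286 and 404 CPM in MES cells, a difference that did not pass the test (0.05, SE 0.15, adjusted p = 0.824). *CLCN6*, which overlaps *NPPA* on the other strand, was at 16.3 and 17.9 CPM in CMs, 17.5 and 19.2 CPM in ECs and 14.6 and 17.4 CPM in MES cells and did not pass in any comparison.

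Over the 14 values of 7 classes in 2 organoids, the genes whose log2(CPM + 1) values followed each member most closely were named as a description, among 10400 genes and without the gate genes. For *NPPA* these were *AC020909.2*, *ASB2* and *XIRP1* (Pearson's r of 0.99 for each), and for *CORIN* they were *PPP1R12B*, *AL390783.1* and *MB* (0.99, 0.99 and 0.98). *NPR1* and *NPR3* both had *TNS2* first (0.96 and 0.97), followed by *FOXC1* and *IFT52* for *NPR1* and by *HOPX* and *RHOJ* for *NPR3*, and their r with each other was 0.94. *NPR2* was closest to *ZNF532*, *FAM171A1* and *FBXL2* (0.96, 0.96 and 0.95). The values were lower for *NPPB* (*VCAM1*, *SUCLG1* and *JPH2*, 0.84 to 0.82) and for *NPPC* (*AC092691.3*, *AHCYL1* and *CNTNAP4*, 0.90 to 0.87). The points share library and depth within an organoid, and the endoderm values rest on few cells.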

How the data were processed

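The authors ran Cell Ranger 7.0.0 on GRCh38 and deposited raw counts, the UMIs of each gene in each barcode. Neither free RNA nor depth differences had been taken out of them, so UMIs of abundant transcripts can appear in cells that do not express them. The study's cell filter was applied (50 to 11000 genes, less than 30% mitochondrial UMIs). Cells were gated on raw UMIs (4 of 6 CM, 3 of 8 EC or 4 of 8 MES markers with at least 2 UMIs, and likewise for the other classes), and cells passing several gates were left out. Doublets were otherwise kept.

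UMIs were summed per class and organoid, and classes of 20 or more cells in both organoids were fitted with edgeR 4.0.16 (R 4.3.3, TMM, expression filter), which left out endoderm. A member's test was reported where at least 1 of the compared classes had 20 UMIs in both organoids, a minimum set after the counts were seen. Members below it that passed the expression filter stayed in the fits and the adjustment. The SE is the log2 fold change over the square root of F. Since classes and divisions were cut from the same cells that were compared, and there were 2 organoids of 1 line, p-values measure only the spread between these organoids. That spread was estimated over all classes of a fit together, blood classes included, and was moderated across genes. It is therefore not the spread of the compared classes alone. Shares were computed in Python 3.11.15 over all cells of a class, and with cells thinned to 5000 UMIs only where this is stated. Classes of the same organoid are paired by origin, and their deviations from the class means correlated by 0.148 to 0.492 over 15 pairs of classes.

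In simulated counts, with 100 genes changed at each size, 15 to 58 of those changed by a log2 fold change of 1 and 65 to 93 of those changed by 2 were recovered over the 9 comparisons, and 2.42% to 11.3% of calls were false. The number of changed genes in the simulation was not matched to the data. In the data, 12414 of 21557 genes passed for CMs over ECs, and 10 of 21410 for pacemaker-marker CMs. The simulated rates may therefore not hold for the tests of the data. The members, gene lists and divisions were chosen with earlier results of these data known. The text names the members, the pathway genes past the threshold with the largest changes, *CLCN6* and the 3 genes most like each member among genes with at least 20 CPM in a class in both organoids. *PDE2A*, *TBX5*, *GATA4*, *MYL7*, *TNNT2*, *TTN* and *COL3A1*, and the level of *SHOX2*, were named after their values were seen. *NPPA-AS1* was not analysed here. Promoters came from RefSeq, where 6 of the 7 members matched, and gene positions from GENCODE 44.

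The alternatives were DESeq2 1.42.0, no filter on low counts, the organoid as a block, each organoid left out, gates with 1 marker more or fewer, a stricter cell filter (1000 genes, 15% mitochondrial), 10% free RNA removed and the top-scoring cells of Scrublet (scanpy 1.11.5, at 0.8% per 1000 barcodes) removed. An organoid was left out of the compared classes only, and the other classes kept both. Free RNA was given the summed profile of all kept cells of an organoid. Chosen after seeing the data were leaving out the shared barcodes, leaving out the 5 highest cells and using only cells of 8000 to 20000 UMIs.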

Additional observations from a re-analysis of the deposited data

How the results depend on the processing

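Of 53 tests of members, 18 passed, and 12 of these passed under all 11 alternatives (*NPPA*, *CORIN*, *NPR1* and *NPR3* in CMs against ECs and MES cells, *NPPB* in CMs against ECs, *NPPC* in MES cells against CMs and ECs, and *NPR1* in arterial-marker against venous-marker ECs). Shares of all genes called are given with each comparison above. How many of those calls passed under all 11 alternatives was not counted. With 2 organoids, differences of a log2 fold change of 1 were often missed in simulated counts. The number of changed genes in those counts was not matched to the data, as given above, so this may not hold for the tests of members. Members below the minimum of 20 UMIs were left out of the 53 tests.

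The number of genes past the threshold fell when an organoid was left out, to 7761 to 7769 for CMs over ECs, 3278 to 3723 for CMs over MES cells, 5800 to 6547 for ECs over MES cells, 1335 to 1948 for arterial-marker over venous-marker ECs, 1 to 1 for endocardial-marker ECs, 0 to 1 for epicardial-marker MES cells, 341 to 479 for cycling CMs, 0 to 2 for pacemaker-marker CMs and 0 to 3 for *MYL2*-positive CMs. In these fits the organoid was left out of the compared classes only. Each of them then had a single library, and the spread came from the other classes. With the organoid as a replicate block it was 863 for endocardial-marker ECs, 713 for epicardial-marker MES cells, 47 for pacemaker-marker CMs and 332 for *MYL2*-positive CMs, and the block changed no call of a member other than the 3 given above (*NPPB*, *NPR3* and *NPPC*). DESeq2 gave 465, 275, 106 and 383 in the same order, and no filter gave 615, 198 and 84 for the first 3. For endocardial-marker ECs it was 411 with 1 gate marker more, 50 with 1 fewer and 102 with free RNA removed. For epicardial-marker MES cells it was 0 with free RNA removed and 24 with Scrublet. For cycling CMs it was 730 with 1 marker fewer. For pacemaker-marker CMs it was 2 with 1 marker more, 53 with 1 fewer and 3 with Scrublet. For *MYL2*-positive CMs it was 26 with 1 marker more and 68 with free RNA removed. The main counts for these 5 were 154, 44, 1296, 10 and 177. The share of calls on the higher side was 58.4% for endocardial-marker ECs (75.7% with DESeq2), 52.3% for epicardial-marker MES cells (40.4%) and 10% for pacemaker-marker CMs (22.6%). It was 28.3%, 26.8% and 25.5% with the replicate block, 30.2%, 28.3% and 4.76% with no filter and, for endocardial-marker ECs, 85.3% with free RNA removed and 70% with 1 marker fewer. For epicardial-marker MES cells it was 79.2% with Scrublet, and for *MYL2*-positive CMs 8.82% with free RNA removed and 38.5% with 1 marker more. The cause was not tested.

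Calls were also lost for *CORIN* in cycling CMs with 1 gate marker fewer (-0.49) and with free RNA removed (-0.85), and for *NPPA* and *CORIN* in *MYL2*-positive CMs with 1 marker more (0.99 and 0.90) and with free RNA removed (1.14 and 1.01). *NPPB* in CMs over MES cells also passed with 1 marker fewer (2.88) and with Scrublet (2.83), and *NPPA* in cycling CMs passed with DESeq2 (-0.35, adjusted p = 0.0418).

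Every change of sign was in a difference that had not passed. Leaving out an organoid gave -0.32 to 0.07 for *NPR2* in ECs over MES cells, -0.23 to 0.74 for *CORIN* in arterial-marker ECs, -0.63 to 0.26 for *NPPA* in endocardial-marker ECs, -0.18 to 0.18 for *NPR1* and -0.92 to 1.27 for *CORIN* in epicardial-marker MES cells, -0.81 to 0.48 for *NPPB* and -0.26 to 0.07 for *NPR2* in cycling CMs, -0.20 to 0.02 for *NPPA* and -0.41 to 0.22 for *NPR2* in pacemaker-marker CMs and -0.45 to 0.06 for *NPR2* in *MYL2*-positive CMs. With 1 gate marker fewer, the values were -0.06 for *CORIN* in arterial-marker ECs, -0.05 for *NPR1* and 0.11 for *NPR2* in epicardial-marker MES cells, 0.01 for *NPPA* and 0.19 for *NPR2* in cycling CMs and 0.27 for *NPR2* in pacemaker-marker CMs. With 1 more, they were -0.14 for *NPR1*, 0.04 for *NPR2* and -0.01 for *CORIN* in epicardial-marker MES cells, -0.05 for *NPPB* in cycling CMs and 0.21 for *NPR2* in pacemaker-marker CMs. Free RNA removed gave -0.00 for *NPPA* and *CORIN* in arterial-marker ECs, DESeq2 0.02 for *NPPA* in endocardial-marker ECs, no filter -0.06 and the replicate block -0.00 for *NPR1* in epicardial-marker MES cells, Scrublet -0.23 for *NPPB* and 0.07 for *NPR2* in cycling CMs, and the stricter cell filter 0.04 for *NPPA* in pacemaker-marker CMs.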

Other observations

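Cells that passed no class gate (5880 and 6564 cells) held 18.2% and 18.7% of all *NPR1* UMIs and 13.4% and 20.6% of all *NPPC* UMIs. Their *NPR3* level was 78.8 and 39.0 CPM and their *NPPC* level 14.2 and 3.26 CPM, lower in organoid 33.10 for both genes, as in MES cells. Cells that passed both the EC and the MES gate (108 and 128 cells) had 230 and 91.1 CPM of *NPR3* and 25.3 and 17.7 CPM of *NPPC*, and 70.4% and 67.2% of them had top doublet scores.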
